A study of Mus musculus with 21 samples.

Results

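The mitochondrial protein import machinery was followed here through 31 genes in poly-A RNA from the mouse hippocampus. The genes were chosen by their role in import, with the differences between maternal separation (MS) and standard rearing (SR) in these same mice already known. All values of MS against SR given for them are therefore descriptions. All 31 genes were found among the 55487 genes listed in the counts, and 30 of them were among the 18146 genes with enough counts to be tested. The gene left untested was Tomm6. The libraries came from male, wild-type C57BL/6 mice, 1 library per mouse, with 9 MS and 12 SR libraries. Whole MS nests were taken from the dam for 4 hr a day from postnatal day 10 to day 17, and part of the nesting material was taken out of their home cages. SR nests were the controls, and the hippocampi of both groups were collected when the mice were 10 weeks old. The study asked which transcripts still differed in the adult hippocampus after MS.

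Nearly all proteins of mitochondria are encoded in the nucleus, made in the cytosol and imported. They enter through the TOM complex of the outer membrane and are then sorted. The small TIM chaperones carry hydrophobic proteins across the intermembrane space to the TIM22 complex, which inserts carriers into the inner membrane. The TIM23 complex takes proteins with a presequence, which the import motor pulls into the matrix and the processing peptidase cuts. A disulfide relay folds and traps small proteins with paired cysteines in the intermembrane space. Neurons depend on this supply because their respiratory chain has to be renewed far from the cell body.

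The mice carried animal numbers in runs of 3, and each run held 1 rearing condition. These 7 sets are called A to C in MS and D to G in SR, and a mouse is named by its set and its place in it. The labels name no nest. The numbers fell into a lower range (54950 to 55068, sets A, B, D, E and F) and an upper range (56999 to 57139, sets C and G). Total counts lay between 17276810 and 30449055 per library. MS library A2 lay apart on the first principal component (27.1, against -12.2 to 11.9 in the other libraries). Its level of Dsp, a marker of dentate granule cells, was 0.693 CPM (counts scaled to the normalised total of the library), and the lowest other library had 54.0. A2 was left out, which left 8 MS and 12 SR mice. In these 20 libraries no marker of hippocampal neurons or glia had a mean of 0 in either group. Choroid plexus markers summed to a median of 3341 CPM in MS (53.1 to 4230) and 843 CPM in SR (28.9 to 4562), and the 8 of 8 markers were higher on average in MS, with 0 called. Striatal markers were higher in 8 of 8 as well (180 to 923 CPM summed in MS, 172 to 594 in SR) and the dentate granule markers in 0 of 5 (247 to 463 and 252 to 509), with 0 called in either list. Of the 13 mitochondrially encoded mRNAs, 12 were lower on average in MS, with 0 called, and their summed level was 35635 to 52046 CPM in MS and 45114 to 50476 CPM in SR.

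The import genes differed widely in their level per kilobase of exon (RPKM), a measure that allows genes of different length to be compared. Tomm20, the outer-membrane receptor for presequences, was highest, at 58.6 ± 2.19 RPKM (SD, n = 12 SR mice). Timm8b followed at 38.4 ± 2.77 RPKM and Tomm34, a cytosolic cochaperone of import, at 30.98 ± 2.38 RPKM. On this scale, each of these 3 genes stood above the next in the order by more than their spread between mice. Timm23, the channel of the presequence translocase, reached 24.9 ± 1.07 RPKM. It has close copies that may take part of its reads, so its place below Tomm34 is uncertain. Tomm22, the central TOM receptor, and Timm29, a metazoan subunit of TIM22, did not differ beyond their spread (20.6 ± 1.07 and 20.4 ± 1.46 RPKM). The genes from Timm13 (17.6 ± 1.303 RPKM) down to Tomm40 (14.5 ± 0.470 RPKM) formed a run in which no gene differed from its neighbour beyond the spread. It held Pmpca, Tomm70a, Timm44 and Tomm5 as well. At the low end stood Dnajc19 at 3.11 ± 0.360, Timm21 at 2.68 ± 0.205 and Timm10b at 2.07 ± 0.188 RPKM. The median over the 31 genes, taken within each SR mouse and averaged over the 12 mice, was 8.03 RPKM. These levels and their order rest on the whole exonic length of each gene. With the longest transcript in its place the median was 9.87 RPKM, and Tomm20 remained highest at 58.7 RPKM. Tomm34 (40.9 RPKM) then lay above Timm8b (38.4 RPKM), with Timm23 at 37.9 RPKM. Tomm70a and Tomm40 moved up in the order, at 27.1 and 23.7 RPKM, while Timm13 and Tomm5 stood at 19.7 and 17.5 RPKM, so the run from Timm13 to Tomm40 did not hold.

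**Figure D1:**
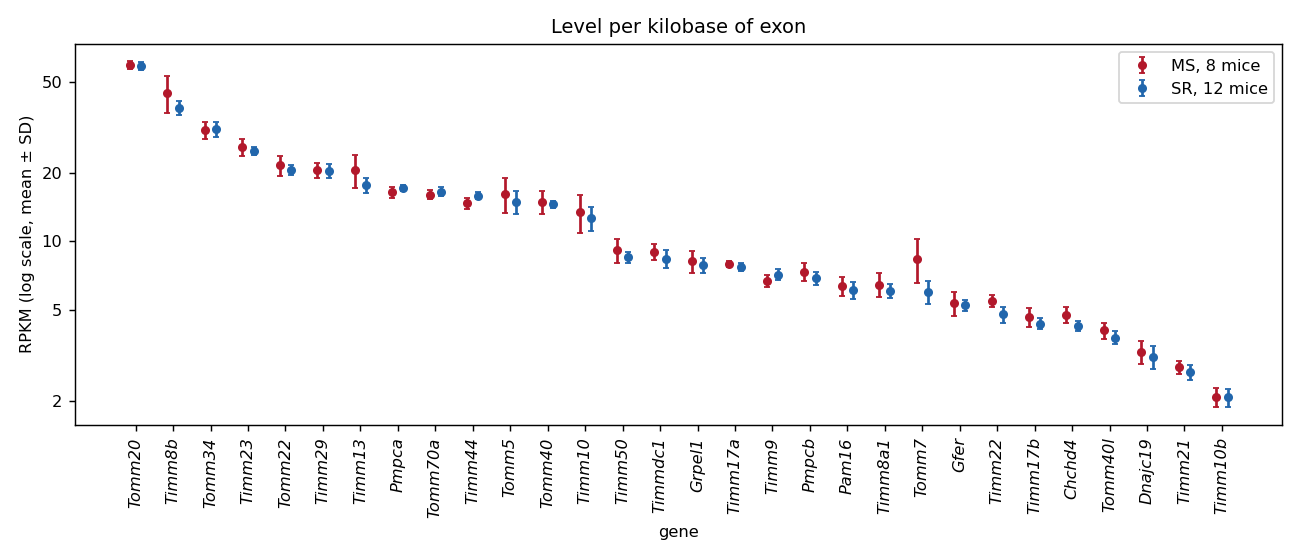
Level per kilobase of exon (RPKM, log scale) of the 30 tested import genes, ordered by their mean in SR mice; points are means of 8 MS (red) or 12 SR (blue) mice and bars are SD. Levels ran from 58.6 RPKM for Tomm20 to 2.07 RPKM for Timm10b, and the MS and SR points lay close together for most genes.

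Paralogs were expressed at unequal levels. Tomm40, the channel of the outer membrane, had 3.85 ± 0.248 times the level per kilobase of its paralog Tomm40l in SR mice, and the ratio lay between 3.23 and 4.17 over all 20 mice. Timm17a exceeded Timm17b, the alternative partner of the TIM23 channel, 1.78 ± 0.111 times. Timm8b exceeded Timm8a1, which has a close copy that may take part of its reads, 6.33 ± 0.447 times, and Timm10 exceeded Timm10b 6.13 ± 0.894 times. Of the peptidase subunits, catalytic Pmpcb stood at 0.403 ± 0.0248 of the level of Pmpca in SR and at 0.450 ± 0.0562 in MS mice. Of the exonic bases, 64.3% of Tomm40l, 20.4% of Pmpca and 15.6% of Timm8b lie opposite another gene. Whether strand was used in counting is not known, so reads from these bases may not have been assigned to the members. These ratios rest on the whole exonic lengths. By the longest transcript, Tomm40 and Tomm40l stood at 23.7 and 4.13 RPKM in SR, and Timm17a and Timm17b at 8.37 and 4.68. Timm10 and Timm10b stood at 14.9 and 2.27 RPKM, and Pmpcb and Pmpca at 8.56 and 23.3. Timm8b and Timm8a1 kept 38.4 and 6.09 RPKM.

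The members varied little among control mice. Their coefficient of variation over the 12 SR mice had a median of 6.70% (3.02% in Pmpca to 11.8% in Timm10), and for 26 of the 30 it was below the median of all genes tested, 11.0%. The members were not matched to other genes by level in this comparison. In 26 of 30 members (86.7%) the coefficient was larger in MS than in SR mice, which held for 66.8% of all genes tested.

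Across the pathway, the difference between MS and SR was small. The log2 fold change of MS against SR had a median of 0.07 over the 30 tested members, against 0.00 over all genes tested, and 25 of the 30 were higher in MS, where 50.3% of all genes were. No member passed the adjusted threshold of 0.05 in edgeR's quasi-likelihood test (0 of 30), which called 2 of the 18146 genes (0.011%). At an unadjusted p under 0.05, 6 members were higher in MS (6.62% of all genes) and 2 were lower (4.92%). DESeq2's Wald test called 2 members, Tomm7 (adjusted p = 0.00778) and Timm22 (adjusted p = 0.0470), where it called 0.966% of the 13871 genes it gave an adjusted p. The 8 MS values lay wholly outside the 12 SR values in 0 of 30 members, as in 0.011% of all genes in either direction. In whole tissue, more cells of a type and more RNA per cell cannot be told apart.

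**Figure D2:**
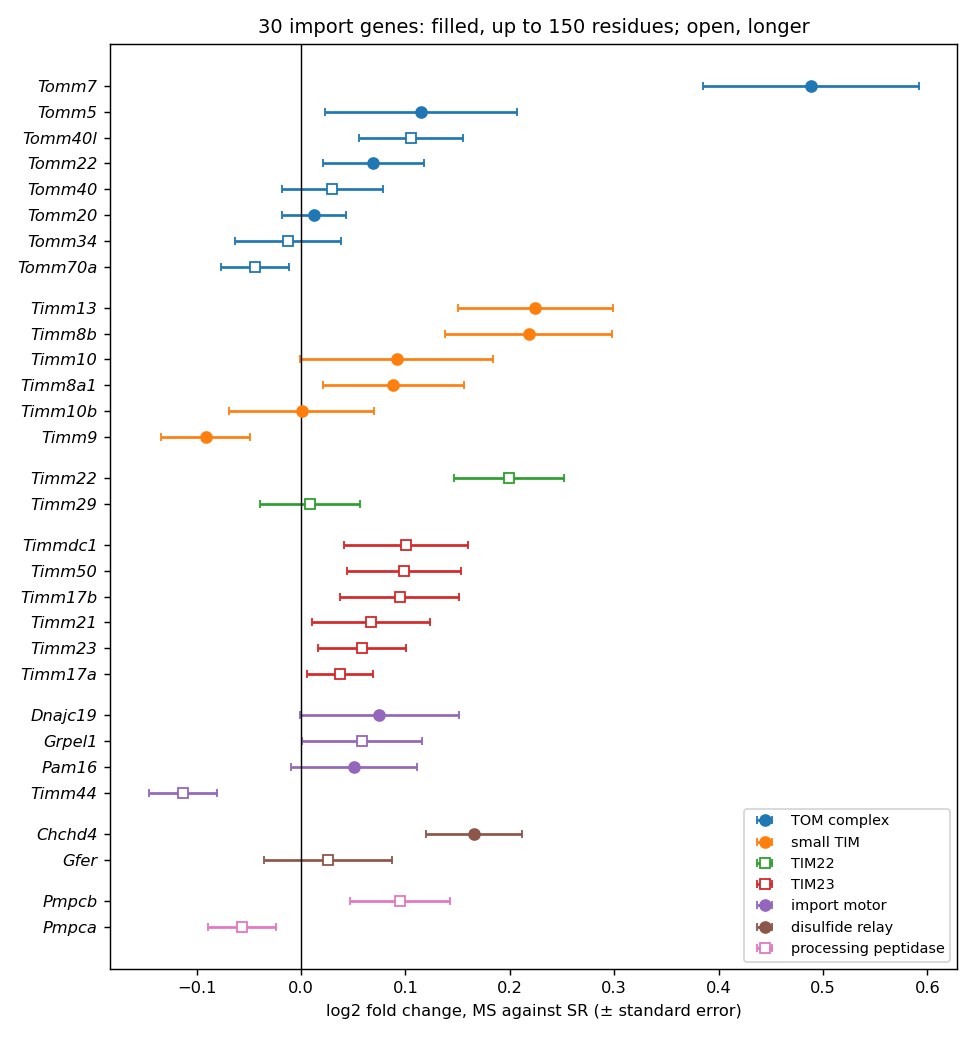
Log2 fold change of MS against SR with its standard error for the 30 tested import genes, grouped by role; filled points are proteins of up to 150 residues and open points longer ones. Tomm7 stands at 0.49, all other genes lie between -0.11 and 0.22, and none passed the adjusted threshold.

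In the TOM complex, Tomm7 stood apart. It is a small subunit that governs how the complex is put together, and also helps to hold PINK1 at the outer membrane of damaged mitochondria. Its 8 MS mice ranged from 5.92 to 12.6 CPM with a median of 9.78, and the 12 SR mice from 5.85 to 7.99 with a median of 6.96. Of the MS mice, 7 lay above every SR mouse, and C3, at 5.92 CPM, lay inside the SR range. The means were 9.44 ± 2.05 (SD, n = 8) and 6.75 ± 0.768 (SD, n = 12) CPM, a log2 fold change of 0.49 (SE 0.103, edgeR adjusted p = 0.111). Within MS, set A averaged 11.7 ± 1.29 CPM over its 2 mice, set B 9.59 ± 1.35 and set C 7.80 ± 1.72, while the 4 SR sets averaged 6.27 to 6.96. The edgeR adjusted p fell under 0.05 without 2 of the 20 libraries and without 1 of the 7 sets. Without C3 the log2 fold change was 0.56 (adjusted p = 0.00667), without C2 0.52 (adjusted p = 0.0423) and without set C 0.63 (adjusted p = 0.00322). Over all libraries left out in turn the adjusted p reached 0.298, and over all sets 0.467. Library A2, not used in these values, had 9.47 CPM. The gene lies on chr5:23838944-23844161 of GRCm38, and its counts came to 108 to 287 per library. The coding sequence is shown to give the size of the protein, 55 residues, and its lack of cysteine codons, in which it differs from the small TIM genes. No base is in capitals.
Tomm7: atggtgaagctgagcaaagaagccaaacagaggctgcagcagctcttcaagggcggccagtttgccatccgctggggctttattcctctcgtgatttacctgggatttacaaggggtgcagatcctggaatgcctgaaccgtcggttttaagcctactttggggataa

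The other TOM genes lay closer to 0. Tomm5, another small subunit, had 14.0 ± 2.49 CPM in MS and 12.9 ± 1.48 in SR, and its MS mice (8.93 to 16.4, median 14.6) spanned the whole SR range (10.2 to 15.0, median 13.0). Tomm40l had a log2 fold change of 0.11 (unadjusted p = 0.0439, adjusted p = 0.419), with 7 of 8 MS mice above the SR median. Of its exonic bases, 64.3% lie opposite Nr1i3, which had 0.0996 CPM in MS and 0.122 in SR. Tomm22 stood at 0.07 and Tomm40 at 0.03. For Tomm40 the MS mice were spread from 55.5 to 80.7 CPM (median 66.3), and 3 lay above and 3 below the whole SR range of 62.7 to 69.0 (median 65.2). The receptors differed little. Tomm20 had 290 ± 11.7 CPM in MS and 288 ± 10.8 in SR (log2 fold change 0.01), and Tomm70a, the receptor for carrier proteins, 157 ± 7.10 and 161 ± 6.95 CPM (-0.04). Tomm34, grouped here with the TOM genes though its protein is cytosolic, stood at -0.01. Tomm6 could not be followed, with 0 to 4 counts per library, and 859 of its 1131 exonic bases (76.0%) are shared on the same strand with Gm21981, so reads from there may not be assigned to Tomm6.

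All 6 small TIM genes encode the twin CX3C pattern of 2 pairs of cysteines, each with 3 residues between. In the intermembrane space these cysteines form disulfide bonds. Each of the 6 genes encodes 4 cysteines, with 14 to 16 residues between the pairs. The coding sequences of the 3 with an unadjusted p under 0.05 between groups are shown to place these codons, which are in capitals. Timm8b and Timm13 form a complex with each other or with their paralogs, and Timm9 partners Timm10 in the main carrier chaperone.
Timm8b: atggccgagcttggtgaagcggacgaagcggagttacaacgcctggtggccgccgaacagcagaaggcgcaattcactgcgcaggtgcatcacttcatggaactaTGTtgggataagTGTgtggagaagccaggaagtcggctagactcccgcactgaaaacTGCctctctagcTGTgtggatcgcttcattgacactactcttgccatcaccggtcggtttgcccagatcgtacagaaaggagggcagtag
Timm13: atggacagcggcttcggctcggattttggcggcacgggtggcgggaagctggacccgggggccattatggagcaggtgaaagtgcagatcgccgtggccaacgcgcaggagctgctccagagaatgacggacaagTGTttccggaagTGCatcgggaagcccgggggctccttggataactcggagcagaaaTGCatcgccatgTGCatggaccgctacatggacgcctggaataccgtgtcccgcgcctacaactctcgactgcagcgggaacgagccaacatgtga
Timm9: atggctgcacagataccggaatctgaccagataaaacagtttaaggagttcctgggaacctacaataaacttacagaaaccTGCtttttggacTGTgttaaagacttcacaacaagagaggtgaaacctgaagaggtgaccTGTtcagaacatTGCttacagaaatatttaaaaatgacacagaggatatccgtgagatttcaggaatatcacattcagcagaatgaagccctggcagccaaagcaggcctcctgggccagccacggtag

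Timm13 and Timm8b were on average higher in MS. Timm13 (chr10:80899450-80900969, GRCm38) ranged from 19.3 to 34.1 CPM in MS with a median of 28.9, and from 21.8 to 28.1 in SR with a median of 23.5. The means were 28.2 ± 4.65 and 24.2 ± 1.79 CPM, a log2 fold change of 0.22 (SE 0.0742, unadjusted p = 0.00585, edgeR adjusted p = 0.242). The groups overlapped: 4 MS mice lay above every SR mouse, and 1, C3, below every SR mouse. Timm8b (chr9:50603910-50605320) ranged from 15.9 to 28.6 CPM in MS with a median of 23.4, and from 17.6 to 22.6 in SR with a median of 19.7. Its log2 fold change was 0.22 (SE 0.0804, unadjusted p = 0.0122, adjusted p = 0.289), again with 4 MS mice above and 1, C3, below all SR mice.

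Timm9 (chr12:71123173-71136684) pointed the other way and differed between the ranges of animal numbers. Its 8 MS mice ranged from 25.9 to 31.4 CPM (median 28.4) and the 12 SR mice from 27.8 to 32.9 (median 30.9), a log2 fold change of -0.09 (SE 0.0424, unadjusted p = 0.0414, adjusted p = 0.410). In the lower range the 5 MS mice (25.9 to 28.5 CPM) all lay below the 9 SR mice (29.2 to 32.9). Library A2, of set A and left out here, had 32.0 CPM, inside the SR range. In the upper range the 3 MS mice (29.5 to 31.4 CPM) all lay above the 3 SR mice (27.8 to 29.1). Timm9 was the 1 member of 30 with such opposite separation, which 0.022% of all genes showed. The test of the difference between the ranges gave 0.28 on the log2 scale (unadjusted p = 0.000992, edgeR adjusted p = 0.368).

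The remaining small TIM genes differed between groups by less than the SD over mice. Timm10 stood at 0.09 (SE 0.0928), Timm8a1 at 0.09 (SE 0.0673) and Timm10b, which joins TIM22, at 0.00 (SE 0.0691). Timm8a1 is the mouse counterpart of the gene altered in deafness-dystonia syndrome. Its transcript matches the pseudogene Gm9797 without a mismatch over 612 bases, and Gm9797 held 2323 counts over the 21 libraries against 4091 for Timm8a1, so reads may be split between them. Gm9797 had a log2 fold change of 0.05 (SE 0.106).

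**Figure D3:**
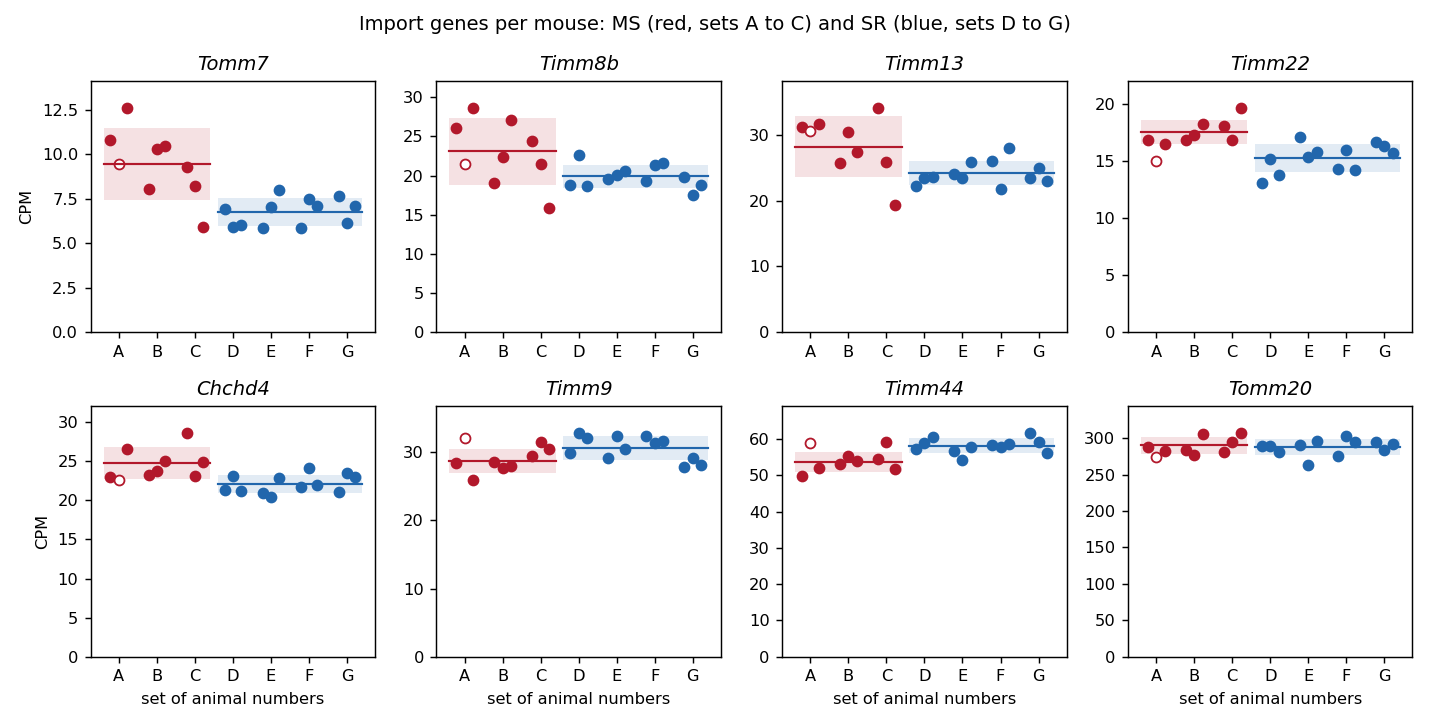
CPM of 8 import genes in each mouse, in sets of consecutive animal numbers (A to C MS, red; D to G SR, blue); lines are group means, bands are SD, and the open circle is library A2, which was left out. Tomm7 lies above the SR mice in all used MS mice but C3, Timm9 is low in the used mice of sets A and B and not in C or A2, and Tomm20 differs little between groups.

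Of the TIM22 complex, the channel gene Timm22 (chr11:76406952-76416292) was higher on average in MS. Its MS mice ranged from 16.5 to 19.6 CPM with a median of 17.1, and its SR mice from 13.0 to 17.1 with a median of 15.5. All 8 MS mice lay above the SR median and 4 above every SR mouse. The log2 fold change was 0.20 (SE 0.0525, edgeR adjusted p = 0.151), and it was 0.20 in the lower and 0.17 in the upper range of animal numbers. Library A2 had 14.9 CPM, below the SR median. Timm29 stood at 0.01 (SE 0.0478).

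The 6 genes grouped here with TIM23 were each slightly higher on average in MS, from 0.04 for Timm17a to 0.10 for Timmdc1. Of these, Timmdc1 is an assembly factor of complex I related to the translocase family, and not a subunit of TIM23. An unadjusted p under 0.05 was found for 0 of the 6. Timm50, the receptor that faces the intermembrane space, had 24.5 ± 2.86 CPM in MS and 22.9 ± 1.34 in SR, and its MS mean was raised by C1 at 31.2 CPM. Timm17b stood at 0.09 with 5 of 8 MS mice above and 1, C3, below every SR mouse. Timm21, which links TIM23 to the respiratory chain, stood at 0.07. Timm23 itself had 46.3 ± 3.89 and 44.5 ± 1.92 CPM, a log2 fold change of 0.06. Reads of Timm23 can be shared with close copies. Gm10273 matches it at 99.9% over 1121 bases and held 4669 counts against 20911, and Gm10171 matches without a mismatch over 628 bases and held 4629. Gm10233 matches without a mismatch over 628 bases and held 1975 counts, and Gm16209 matches at 98.2% over 627 bases and held 1671. The log2 fold changes of these copies, in the order named, were 0.03, 0.05, 0.06 and 0.14.

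In the import motor, Timm44, which tethers the motor's Hsp70 to the channel, was lower on average in MS. Its MS mice ranged from 49.9 to 59.1 CPM with a median of 53.5, and its SR mice from 54.0 to 61.7 with a median of 58.1. Of the MS mice, 5 lay below every SR mouse and 1 above the SR median. The log2 fold change was -0.11 (SE 0.0327, edgeR adjusted p = 0.189), and it was -0.13 and -0.09 in the lower and upper ranges. Library A2 had 58.8 CPM, above the SR median. The other motor genes lay at 0.08 for the J-protein gene Dnajc19, 0.06 for the nucleotide exchange factor Grpel1 and 0.05 for Pam16, which restrains the J-protein. Their standard errors were 0.0762, 0.0572 and 0.0606.

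In the disulfide relay, Chchd4, the oxidoreductase that recognises incoming substrates (also called MIA40), was higher on average in MS. Its MS mice ranged from 22.9 to 28.7 CPM with a median of 24.3, and its SR mice from 20.5 to 24.2 with a median of 21.8. All 8 MS mice lay above the SR median and 4 above every SR mouse, with a log2 fold change of 0.17 (SE 0.0461, edgeR adjusted p = 0.168). The value was 0.15 in the lower and 0.19 in the upper range. Gfer, the oxidase that recharges Chchd4, stood at 0.03 (SE 0.0615).

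The peptidase subunits lay on either side of 0. Pmpca, the subunit that binds the presequence, had 70.3 ± 4.10 CPM in MS and 73.1 ± 2.21 in SR (log2 fold change -0.06, SE 0.0325), with 4 MS mice below every SR mouse. Pmpcb had 37.8 ± 3.34 and 35.4 ± 2.21 CPM (0.09, SE 0.0481), with 3 MS mice above every SR mouse. Neither had an unadjusted p under 0.05.

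Small and large members were also compared. The 13 tested members of up to 150 residues had a median log2 fold change of 0.09, with 12 of 13 higher in MS, and the 17 longer ones 0.06, with 13 of 17 higher. The medians differed by 0.03, and by 0.01 with the transcript length trend of each mouse as a term in the fit. With small taken as up to 100 residues they differed by 0.04, and with a division at the median exonic length by 0.05. The same difference taken in single mice had an SD of 0.0898, which is not the error of a difference between groups. The difference was not tested. Beyond the import genes, among all 1036 tested genes for proteins of up to 150 residues the median was 0.08 and 74.7% were higher in MS, and among the 13781 longer ones it was 0.00 and 50.4%. By class, the share higher was 73.8% up to 100 residues, 75.1% from there to 150, 66.6% on to 300, 53.0% on to 600 and 38.8% over 600. The members with over 150 and up to 300 residues, 9 of 9 higher with a median of 0.06, can be read beside the 66.6% of their class. By exonic length, the share of all genes higher was 54.4% up to 1 kb and 61.2% on to 2 kb. It was 55.9% on to 4 kb, 46.5% on to 8 kb and 36.2% above that. In these classes, in order, 3 of 3, 6 of 6, 9 of 11, 7 of 9 and 0 of 1 members were higher. The median of each class of members is thus set against a background that itself moves with length.

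**Figure D4:**
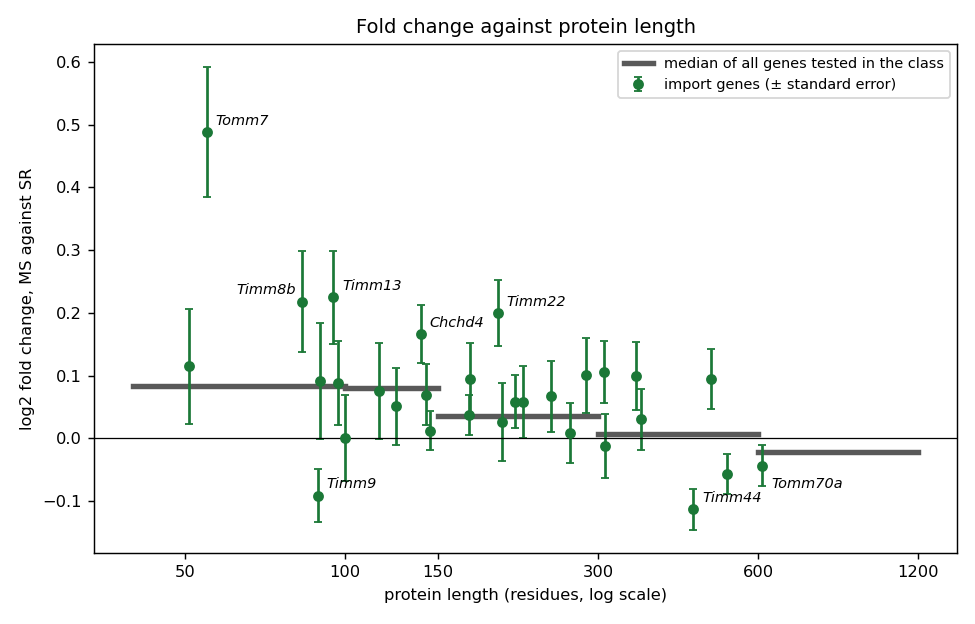
Log2 fold change of MS against SR (± standard error) of the 30 tested import genes against protein length in residues (log scale), with the median of all genes tested in each length class as grey bars; the last bar stands for all proteins over 600 residues. The class medians decline from 0.08 to -0.02, and Tomm7 at 0.49 lies farthest above its class.

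A length trend was also computed for each mouse, as Spearman's rho across genes between the exonic length and the deviation of a gene's log2 CPM from its mean, so that a negative value means relatively more reads of short transcripts. It ranged from -0.304 to 0.167 in MS (median -0.03) and from -0.120 to 0.114 in SR (median 0.04). A two-sided exact permutation test of the difference of means gave p = 0.135. The test permuted single mice, although rearing was given to whole nests. C3, at 0.167, was the lowest MS mouse in 14 of 30 members, 8 of them among the 13 small ones, and in 15.7% of all genes. C1, at -0.304, was the highest MS mouse in 14 of 30, of which 5 were small and 9 large, and in 20.1% of all genes. With the trend as a term in the fit, the median of the members was 0.01 and Tomm7 kept a log2 fold change of 0.40 (edgeR adjusted p = 0.189). With the summed choroid plexus level as a term, added after the values were seen, the median was 0.07 and Tomm7 stood at 0.45 (adjusted p = 0.287). The part of the mitochondrially encoded mRNAs in these values was not tested.

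The difference between MS and SR was also fitted within each range of animal numbers. In the lower range (5 MS and 9 SR mice) 3 members passed the adjusted threshold, where 1.25% of all genes did. They were Tomm7 at 0.65 (SE 0.103, adjusted p = 0.0153), Timm13 at 0.27 (SE 0.0647, adjusted p = 0.0480) and Timm9 at -0.18 (SE 0.0422, adjusted p = 0.0456). In the upper range (3 and 3 mice) edgeR called 0 of 30 members and 0% of all genes. There 0 members had an unadjusted p under 0.05, where 4.52% of all genes did, and Tomm7 stood at 0.17 (SE 0.182). For the difference between the ranges it called 0 of 30 members and 0% of all genes. At an unadjusted p under 0.05 that difference was seen in 2 members, Timm9 and Tomm7 (-0.48, unadjusted p = 0.0254, adjusted p = 0.536), and in 8.52% of all genes.

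**Figure D5:**
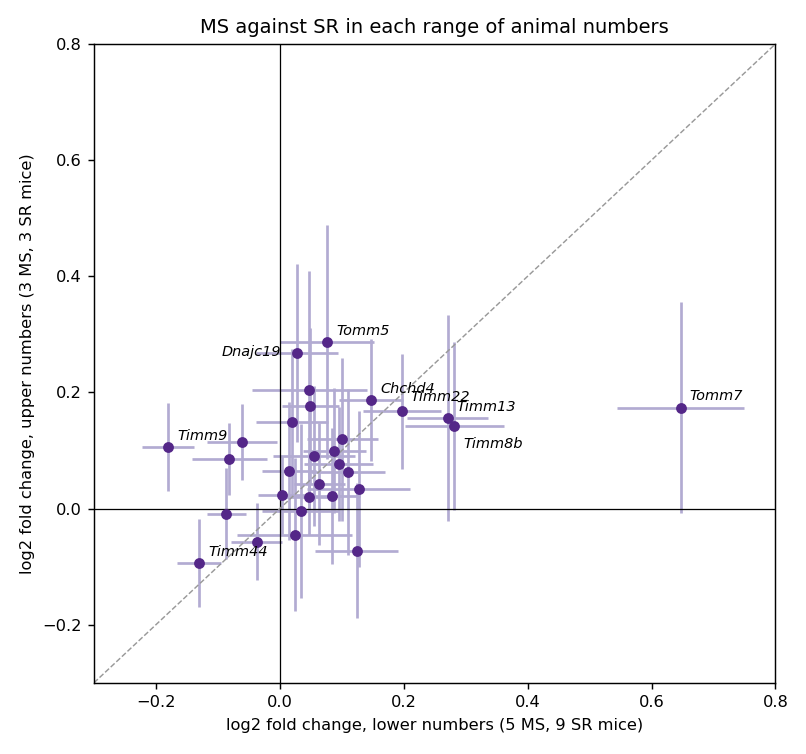
Log2 fold change of MS against SR in the lower (x axis, 5 MS and 9 SR mice) and the upper range of animal numbers (y axis, 3 and 3 mice) for the 30 tested import genes, with standard errors; the dashed line marks equal values. Tomm7 lies far to the right at 0.65 and 0.17, and Timm9 lies at -0.18 and 0.11.

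The members were also compared among the 12 control mice. These mice are the SR side of the comparison that was known when the members were chosen. Among the 4 SR sets edgeR called 0 of 30 members (0.0158% of all genes). At an unadjusted p under 0.05 it found 2 members, Dnajc19 (p = 0.00793, adjusted p = 0.589) and Tomm5 (p = 0.0340, adjusted p = 0.649), where 7.46% of all genes passed. Set G was low in both. Dnajc19 averaged 10.7 ± 0.588 CPM in set G and 12.4 to 14.0 in the other SR sets, and Tomm5 11.2 ± 0.816 and 13.0 to 14.1. Between the upper and lower ranges in SR, 0 of 30 members were called by edgeR (0.00526% of all genes). At an unadjusted p under 0.05 there were 3, the same 2 genes and Timm9, where 8.11% of all genes passed. Because set G is the SR set of the upper range, set and range cannot be told apart here.

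The wider import pathway was read from a list of 37 further genes. It held cytosolic and matrix chaperones, outer- and inner-membrane insertases, peptidases and porins, and also genes of the cristae, of membrane fusion and of other inner-membrane proteins. Of the 35 tested, 25 were higher and 10 lower in MS, with a median log2 fold change of 0.03. edgeR called 0 of them. At an unadjusted p under 0.05, 12 were higher and 0 lower, where 6.62% and 4.92% of all genes were. The highest was Romo1, a small inner-membrane protein linked to TIM21 and reactive oxygen, at 9.18 ± 2.04 CPM in MS and 7.11 ± 0.879 in SR (0.37, edgeR adjusted p = 0.181). The lowest was Mtx3, a metaxin of the outer-membrane sorting machinery, at -0.07.

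Promoters of the members were searched for letters bound by factors known from nuclear genes of mitochondria. RefSeq promoter sequences (GRCm38.p6, 300 bases around the start of transcription) were given for 28 of the 31 members, and not matched for Tomm7, Tomm40l and Timm21. The letters CCGGAAG, known for GABPA and other ETS factors, were found on either strand in 12 of 28 members (42.9%), and in 9.93% of all 27025 genes with a promoter and 17.4% of the 12423 of them that were tested. GCGCATG, the core for NRF-1, was found in 3 members (10.7%) and 7.1% of tested genes, AAGATGG, known for YY1, in 3 (10.7%) and 7.8%, and AAGGTCA, an element of estrogen-related receptors, in 3 (10.7%) and 4.2%. These are matches of letters, not sites. Of the genes described above, Timm8b held the GABPA and the AAGGTCA letters, Timm13 the NRF-1 letters and Timm44 those of AAGGTCA, and Timm22, Chchd4 and Timm9 held none of the 4. The promoters of Timmdc1 (chr16:38522614-38522913, minus strand) and Timm10 (chr2:84826771-84827070, plus strand) are shown as examples with 4 and 3 matches to CCGGAAG, in capitals. Tomm22 held 3 as well and is not printed. In each of the promoters shown, a pair overlaps on opposite strands and reads as 1 longer run of capitals.
Timmdc1: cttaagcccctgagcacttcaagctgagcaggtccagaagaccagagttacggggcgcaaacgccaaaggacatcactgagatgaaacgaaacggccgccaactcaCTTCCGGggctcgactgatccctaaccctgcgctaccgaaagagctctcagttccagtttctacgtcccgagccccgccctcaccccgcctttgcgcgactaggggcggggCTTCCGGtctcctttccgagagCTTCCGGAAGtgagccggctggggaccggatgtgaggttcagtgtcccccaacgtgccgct
Timm10: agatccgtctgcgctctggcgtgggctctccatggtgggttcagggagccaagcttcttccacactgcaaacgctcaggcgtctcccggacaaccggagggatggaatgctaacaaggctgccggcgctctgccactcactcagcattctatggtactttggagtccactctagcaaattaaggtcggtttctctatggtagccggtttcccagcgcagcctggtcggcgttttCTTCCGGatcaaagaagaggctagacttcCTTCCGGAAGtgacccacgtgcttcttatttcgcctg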

How the data were processed

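Poly-A RNA of 21 hippocampi was sequenced by the study's authors from a directional library kit. Reads were aligned to GRCm38 with STAR 2.7.3a and counted with featureCounts, and whether strand was used in counting is not given in the sources used here. The authors deposited raw counts per Ensembl gene, without normalization. Library A2 was left out as the library farthest from the others in a PCA of the 500 most variable genes (DESeq2 1.42.0, variance-stabilised counts). The study's methods also removed 1 outlier but do not name it.

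TMM factors scaled the counts, filterByExpr with a minimum count of 10 set the genes kept, and differences were tested with the quasi-likelihood test of edgeR 4.0.16 in R 4.3.3, with robust fitting and Benjamini-Hochberg adjustment over all genes tested at 0.05; the study used DESeq2 with independent hypothesis weighting. The biological coefficient of variation was 13.35%. The SE is the log2 fold change divided by the root of the F statistic. RPKM is TMM-normalized CPM per kilobase of exon. Symbols, exons and coding sequences are those of GENCODE M21, which had no entry for 260 genes; protein lengths were taken from its coding sequences, since no RefSeq protein table was used here. Close copies were searched with BLAST 2.17.0. Columns that belong to no sample numbered 0. The computations were tested on simulated data.

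The 31 members, the 37 further genes, the markers and the tests were chosen with earlier results of these data known. Named genes are the members, the highest and lowest of the further genes, and genes sharing reads with members. Mice of 1 set may share a nest, so p-values over mice can be too small.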

Additional observations from a re-analysis of the deposited data

Results flagged for a closer look

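Of the 30 tested members, 2 had 1 MS mouse far from the other 7 by Dixon's test at the 95% level, and chance flags about 1 in 20 groups. Timm50 had 31.2 CPM in C1, with the next mouse at 25.5. Dnajc19 had 9.86 CPM in C3, with the next at 12.7. These are the mice with the lowest and the highest length trend.

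The MS mice lay on opposite sides of the SR mice for Timm9 in the 2 ranges of animal numbers. Its MS mice averaged 27.7 CPM in the lower and 30.5 CPM in the upper range, and its SR mice 31.4 and 28.4 CPM. The test of that difference had an unadjusted p of 0.000992 and an edgeR adjusted p of 0.368.

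Library A2, outside all comparisons, lay above every SR mouse for 5 members: Tomm7 (9.47 CPM, highest SR mouse 7.99), Tomm40l (24.0, 22.2), Tomm70a (177, 171), Timm13 (30.6, 28.1) and Timm21 (11.1, 10.9). It lay below every SR mouse for 7 of the 30. Over all genes tested, A2 lay above every SR mouse for 23.1% and below for 22.6%, against 16.7% and 23.3% of the members. The library has little RNA of dentate granule cells and more of striatal genes (418 CPM of Penk, against 13.8 to 135 elsewhere), and the part of this in its values was not tested.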

How the results depend on the processing

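The number of members called was 0 by edgeR and stayed 0 with all 21 libraries, DESeq2's size factors in edgeR, no filter, at least 10 counts in every library, the range of animal numbers, the length trend or the choroid plexus level as a term, a random block for the set in limma-voom, and counts summed within sets. Each of these fits called only 0 to 2 of all genes, so a count of 0 members says little about the import genes in particular. DESeq2's Wald test called 2 members, with Tomm7 at 0.49 (adjusted p = 0.00778), where 134 of all genes were called. Leaving out each library in turn gave 0 to 2 members, and each set 0 to 4. The count reached 2 without C2 (Tomm7 and Timm44) and without C3 (Tomm7 and Timm13), where 109 of all genes were called each time, and 4 without set C (these 3 and Timm8b), where 340 were. The cause was not tested. Tomm7 stayed positive throughout, at 0.42 to 0.56 over libraries (adjusted p 0.00667 to 0.298) and 0.37 to 0.63 over sets (0.00322 to 0.467). Its adjusted p was 0.199 with the set as a random block and 0.382 with summed counts. The median of the members was 0.04 to 0.08 over libraries and 0.05 to 0.08 over sets, and that of small minus large members 0.02 to 0.05 and 0.00 to 0.06. Of the 29 other tested members, 24 were higher in MS, 20 to 25 over libraries and 22 to 24 over sets, and 17 with the length trend as a term. All 1073 values of these members under the alternatives moved by less than 1 SD over single mice. That SD was often larger than the value itself, so a value could change sign within it. Tomm5, for example, had 0.11 in the main fit (SD 0.222) and -0.01 with the length trend as a term. The counts among SR sets, between SR ranges and for the difference between ranges stayed 0, where the main fits called 3, 1 and 0 of all genes. The median level of the members was 8.03 RPKM by exonic length and 9.87 by the longest transcript. No paired analysis was possible because the labels give no number that MS and SR mice share. The standard errors of the members ran from 0.0307 for Tomm20 to 0.103 for Tomm7, which limits how small a difference could be seen with 8 MS mice.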
